A study of Homo sapiens with 12 samples.

Results

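Transcripts of 7 adrenergic receptor genes were followed in C4.2B cells treated with a PI3K inhibitor, an EZH2 inhibitor or both. C4.2B is an established human cell line of castration-resistant prostate cancer, and all libraries came from this single line. The family was chosen by the levels of ADRA2A, the α2A receptor gene, in these same libraries, and the other members were taken because they belong to its family. The 7 genes (ADRA1A, ADRA1B, ADRA1D, ADRA2A, ADRA2B, ADRA2C and ADRB1) are 7 of the 23228 genes listed in the count files, and 6 of them had at least 1 count. Other adrenergic receptor genes were not analysed here. There were 4 arms with 3 replicates each (A, B and C). DMSO received vehicle, GDC received 0.5 µM GDC-0941, which inhibits all class I PI3K isoforms, GSK received 5 µM GSK126, which inhibits EZH2, and COMBO received both agents. Every arm was pretreated for 6 days with GSK126 or vehicle. For the last 24 h, when the agents were combined, the medium held 10% charcoal-stripped serum, which is depleted of steroid hormones. By the study's methods the pretreated cells were plated in triplicate the day before, and no label ties a library to a separate culture beyond that, so p-values measure the spread between these libraries and not between repeats of the whole experiment.

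Adrenergic receptors are G protein-coupled receptors for adrenaline and noradrenaline. The α1 receptors (ADRA1A, ADRA1B and ADRA1D) couple mainly to Gq and raise intracellular calcium through phospholipase C, and in the prostate the α1A receptor is best known for contracting the smooth muscle of the stroma. The α2 receptors (ADRA2A, ADRA2B and ADRA2C) couple mainly to Gi/o proteins, which inhibit adenylyl cyclase and lower cAMP. The β1 receptor (ADRB1) couples to Gs and raises cAMP. EZH2 is the enzyme of Polycomb repressive complex 2 that trimethylates histone H3 at lysine 27, a mark of silent genes, and PI3K is a lipid kinase of growth factor signalling.

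The libraries held 8785218 to 44437751 counts in genes, with the widest spread in DMSO. The share of reads outside annotated genes was 13.67% to 15.73% in the DMSO and GDC libraries and 18.47% to 23.02% in the GSK and COMBO libraries, and its part in the results below was not tested. Levels are given as CPM, counts scaled to library size with TMM factors. The cells carried the lineage marker KLK3 (prostate-specific antigen), which averaged 596.6, 1156, 1315 and 1843 CPM in DMSO, GDC, GSK and COMBO. All 9 prostate luminal markers were tested, with a summed level of 3328 to 3549 CPM (DMSO), 4900 to 5037 (GDC), 4511 to 4914 (GSK) and 5595 to 6033 (COMBO). All 3 basal markers (KRT5, KRT14 and TP63) and all 5 sympathetic or chromaffin markers (TH, DBH, PNMT and PHOX2A among them) were under 1 CPM in every library. The same held for 4 of 6 neuroendocrine markers (CHGA, CHGB and INSM1 among them), and the sum over the 6 was 8.42 to 9.124 CPM (DMSO), 10.19 to 11.23 (GDC), 13.75 to 15.27 (GSK) and 14.87 to 17.55 (COMBO). Among markers of stromal and blood cells, DES and CNN1 of 4 smooth muscle markers and PECAM1, PTPRC and PF4 of 4 endothelial and blood markers were under 1 CPM in every library. The summed smooth muscle level ran from 4.884 to 6.912 CPM (DMSO), 3.801 to 4.435 (GDC), 7.351 to 9.153 (GSK) and 3.905 to 5.283 (COMBO), and the summed endothelial and blood level from 2.737 to 3.2, 4.426 to 6.894, 5.763 to 6.263 and 4.935 to 5.725 in the same order. EZH2 mRNA averaged 104.6, 81.8, 56.29 and 34.94 CPM in the same order. GSK126 blocks the activity of the enzyme, so this transcript does not check the treatment.

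The promoter sequences of 3 receptor genes with transcripts in these libraries are shown because the members differ in CG dinucleotides, the pairs that make up CpG islands. The bases lie before the annotated start on the plus strand of hg38 (RefSeq, GRCh38.p14), with every CG pair in capitals. The ADRA2C stretch is cut to 213 bases, because GENCODE places the start of that gene before the RefSeq start, and it holds 37 of the 44 CG pairs counted for its whole window. RefSeq promoters were matched for 4 of the 7 genes.
ADRA2A promoter, chr10:111076779-111077028: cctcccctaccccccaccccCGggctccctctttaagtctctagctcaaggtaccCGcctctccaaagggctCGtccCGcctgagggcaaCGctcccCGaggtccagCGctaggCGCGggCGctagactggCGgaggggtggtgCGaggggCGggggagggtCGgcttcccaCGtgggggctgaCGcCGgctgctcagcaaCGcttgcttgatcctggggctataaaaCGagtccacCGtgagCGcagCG
ADRB1 promoter, chr10:114043616-114043865: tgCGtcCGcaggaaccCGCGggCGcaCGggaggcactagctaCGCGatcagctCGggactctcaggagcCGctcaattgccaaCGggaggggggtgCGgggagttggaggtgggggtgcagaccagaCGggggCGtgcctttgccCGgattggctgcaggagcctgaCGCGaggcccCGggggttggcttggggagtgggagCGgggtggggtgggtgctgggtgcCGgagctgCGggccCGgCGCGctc
ADRA2C promoter, chr4:3766135-3766347: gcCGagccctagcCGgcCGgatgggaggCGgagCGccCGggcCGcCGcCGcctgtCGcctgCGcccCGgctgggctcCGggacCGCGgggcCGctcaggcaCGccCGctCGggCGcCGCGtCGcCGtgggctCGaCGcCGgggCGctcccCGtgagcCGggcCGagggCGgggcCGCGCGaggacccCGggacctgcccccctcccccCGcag
In the 250 bases before the RefSeq start, ADRA2A held 22 CG pairs, ADRB1 24 and ADRA2C 44, and ADRA1B, which had almost no transcripts, held 33. The median over 35116 RefSeq promoters was 11. The ADRA2A promoter was thus richer in CG pairs than 71.98% of promoters, against 76.32% for ADRB1, 91.85% for ADRA1B and 99.23% for ADRA2C, and it had the fewest among these 4. A few short motifs, picked with these sequences in view, were searched on both strands. TATAAA, the core of the TATA box, begins 29 bases before the ADRA2A start and occurs in 10.7% of all promoters, and CACGTG, an E-box, begins 80 bases before it and occurs in 6.34%. Neither motif was in the ADRB1, ADRA2C or ADRA1B window. GTAAACA, a forkhead motif found in 2.98% of promoters, and TGACGTCA, a cAMP response element found in 1.65%, were in none of the 4 windows. These matches are descriptions of sequence and say nothing of which factors were bound.

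ADRA2A was the receptor gene with the widest range across arms. ADRA2A is a gene of 1 exon on the plus strand of chromosome 10 (chr10:111077029-111080907, hg38), with no overlapping gene among those counted. It was represented by 13, 29 and 67 counts with vehicle and by 46, 85 and 84 with GDC-0941. The GSK libraries held 486, 621 and 525 counts, and the COMBO libraries 3285, 4491 and 2818. Every GDC library exceeded every DMSO library after scaling, every GSK library exceeded every GDC library, and every COMBO library exceeded every GSK library.

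On the CPM scale ADRA2A measured 1.528 ± 0.138 in DMSO and 4.978 ± 0.815 in GDC (mean ± SD, n = 3, as for all means below). It measured 48.99 ± 4.46 CPM in GSK and 198.4 ± 7.29 CPM in COMBO. The mean level was therefore 3.258-fold that of DMSO in GDC, 32.07-fold in GSK and 129.9-fold in COMBO, and COMBO was 4.05-fold GSK and 39.85-fold GDC. The fitted log2 fold changes against DMSO were 1.68 (SE 0.164) for GDC, 4.95 (SE 0.111) for GSK and 6.97 (SE 0.0971) for COMBO. The comparisons against DMSO share the same DMSO libraries. Because ADRA2A was picked for these values, they are given as a description, with no test. In bulk RNA, more RNA per cell and a larger share of cells with the transcript cannot be told apart.

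The joint level can be set beside 2 simple references. If the increments of the single agents over DMSO added on the CPM scale, COMBO would be at 52.44 CPM, and if their folds multiplied it would be at 159.6 CPM. The observed mean of 198.4 CPM lay above both, and the interaction on the log2 scale was 0.34 with an SE of 0.186. With an SE of that size, the excess over the multiplied folds cannot be told from no excess, and it was not tested. ADRA2A also moved through the range of expressed genes. Per kilobase of exon its mean was 0.3939 CPM (DMSO), 1.283 (GDC), 12.63 (GSK) and 51.15 (COMBO). On this scale 14.3% of 12010 tested genes with a known length were lower than ADRA2A with vehicle, 23.4% with GDC-0941, 72% with GSK126 and 95.3% with both.

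**Figure D1:**
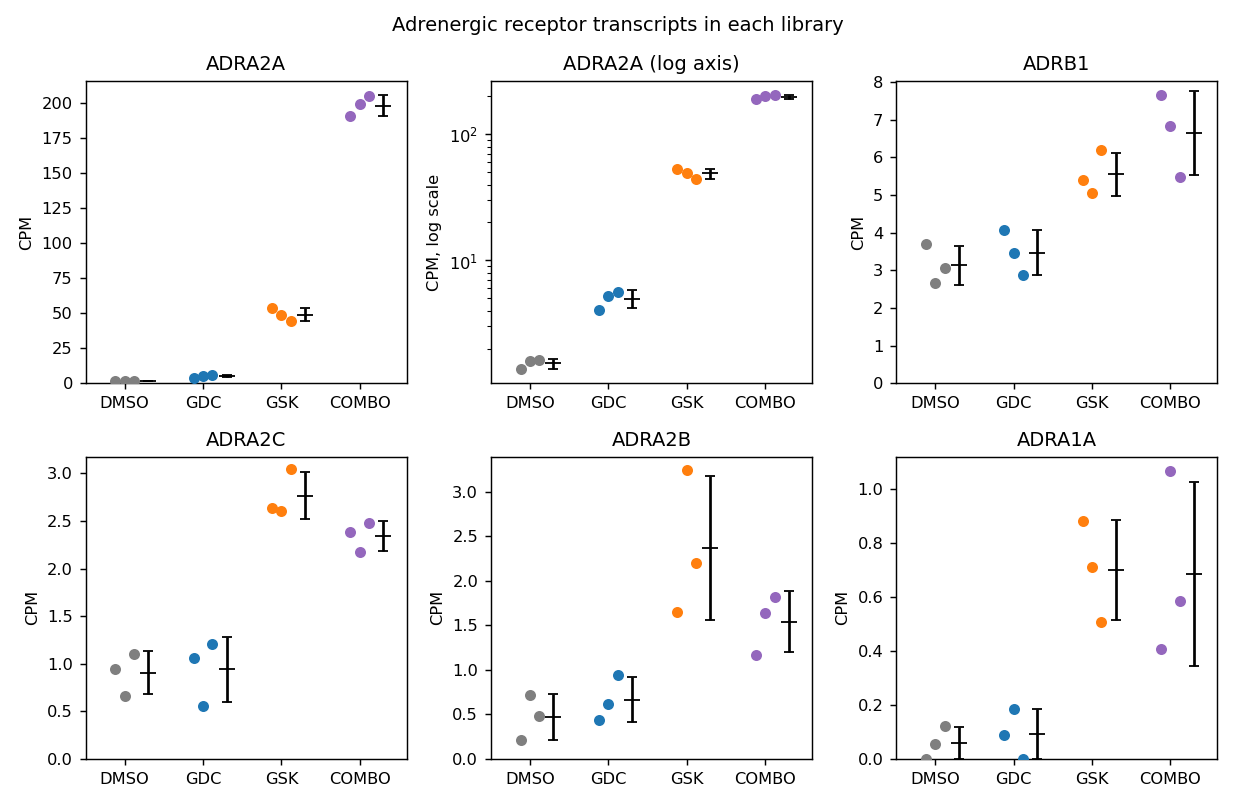
CPM of the 5 receptor genes with more than 2 counts in DMSO, GDC, GSK and COMBO. Points are the 3 libraries of an arm (A, B and C from left to right), and the black bar is the mean ± SD (n = 3). Linear axes start at 0, and ADRA2A is drawn a second time on a log axis, where its 4 arms do not overlap and run from 1.528 CPM in DMSO to 198.4 CPM in COMBO on average.

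ADRB1, the β1 receptor, was higher in both arms that received GSK126. The gene has 1 exon and lies further along chromosome 10 (chr10:114043866-114046904). Its counts were 35, 48 and 127 for DMSO and 46, 56 and 43 for GDC. They were 49, 64 and 73 for GSK, and 132, 154 and 75 for COMBO. These correspond to 3.131 ± 0.519 CPM (DMSO), 3.466 ± 0.591 (GDC), 5.543 ± 0.580 (GSK) and 6.653 ± 1.11 (COMBO). All 6 libraries with GSK126 lay above all 6 without it, whereas DMSO overlapped GDC and GSK overlapped COMBO.

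Against DMSO, ADRB1 rose by 0.86 on the log2 scale with GSK126 (SE 0.174, edgeR quasi-likelihood test, adjusted p = 1.64e-04). It rose by 1.14 with both agents (SE 0.156, adjusted p = 1.21e-06). Of the 14189 genes tested, 40.0% were higher in GSK and 43.3% were higher in COMBO at the same threshold. GDC differed from DMSO by 0.17 (SE 0.182, adjusted p = 0.493) and COMBO from GSK by 0.28 (SE 0.157, adjusted p = 0.163), so neither step passed the test. COMBO exceeded GDC by 0.97 (SE 0.164, adjusted p = 2.34e-05), with 37.9% of genes higher in that comparison. The interaction was 0.11 (SE 0.241, adjusted p = 0.802).

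ADRA2C, the α2C receptor, followed the same division with GSK126 at lower counts. ADRA2C (chr4:3766348-3768526, 1 exon) had 9, 12 and 46 counts for DMSO, 12, 9 and 18 for GDC, 24, 33 and 36 for GSK, and 41, 49 and 34 for COMBO. The means were 0.906 ± 0.225 CPM (DMSO), 0.941 ± 0.343 (GDC), 2.766 ± 0.248 (GSK) and 2.344 ± 0.154 (COMBO). The GSK libraries all lay above the COMBO libraries, and the libraries of both arms lay above all DMSO and GDC libraries. It rose by 1.53 on the log2 scale with GSK126 (SE 0.25, adjusted p = 1.51e-05) and by 1.28 with both agents (SE 0.237, adjusted p = 5.26e-05). The difference between COMBO and GSK was -0.25 (SE 0.221, adjusted p = 0.375), and that between GDC and DMSO was -0.050 (SE 0.300, adjusted p = 0.915).

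ADRA2B, the α2B receptor (chr2:96112876-96116571, 1 exon), had its highest mean in GSK. Counts were 2, 13 and 20 for DMSO, 5, 10 and 14 for GDC, 15, 41 and 26 for GSK, and 20, 37 and 25 for COMBO. The means were 0.470 ± 0.254, 0.666 ± 0.252, 2.364 ± 0.808 and 1.541 ± 0.341 CPM in that order. The GSK and COMBO libraries overlapped each other, and both lay above all DMSO and GDC libraries.

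ADRA2B passed the filter on low counts through the libraries where it was high (0 DMSO, 1 GDC, 3 GSK and 3 COMBO libraries over 0.705 CPM), so its differences from DMSO and GDC are a description, with no test. The fitted log2 values against DMSO were 2.25 with GSK126 (SE 0.336) and 1.59 with both agents (SE 0.339). The pooled counts of COMBO were 3.029 times those of DMSO after scaling, with an exact 95% counting interval of 2.016 to 4.637. Those of GSK were 4.828 times those of DMSO (3.213 to 7.393). These intervals cover counting error only, not the spread between libraries, and serve as no test. COMBO was below GSK by a log2 value of -0.66 (SE 0.285) that missed the threshold (adjusted p = 0.0655). Without GSK replicate A the same comparison gave -0.80 with an adjusted p of 0.0399. It also passed with the replicate letter added as a block, so the call depends on that library and on the fit.

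Among the α1 receptors, ADRA1A alone had more than a few counts. ADRA1A (chr8:26748150-26867278) gave 0, 1 and 5 counts for DMSO, 1, 3 and 0 for GDC, 8, 9 and 6 for GSK, and 7, 24 and 8 for COMBO. Each GSK and COMBO library was above every DMSO and GDC library in CPM, with means of 0.0585, 0.0911, 0.700 and 0.685 CPM. Pooled over replicates, the scaled count was 7.9 times that of DMSO in GSK (exact 95% counting interval 3.127 to 23.72) and 8.402 times in COMBO (3.532 to 24.28), against 1.086 times in GDC (0.2253 to 4.578). These intervals too cover counting error only and serve as no test. The fitted log2 values against DMSO were 2.89 with GSK126 (SE 0.657) and 2.96 with both agents (SE 0.590), given as a description. COMBO and GSK differed by 0.072 (adjusted p = 0.913). This gene entered the test through 2 GSK libraries and 1 COMBO library over the filter, and no DMSO or GDC library, so it had to differ to enter the fit and no test against DMSO is given.

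ADRA1B (chr5:159865080-159973012) had 1 count in GDC replicate B and 1 in COMBO replicate A, and ADRA1D (chr20:4220630-4249287) had 0 counts in all 12 libraries. Neither was tested. The floor of a silent gene was set at 3 counts, equal to 0.07218 to 0.3297 CPM in a single library and 0.0151 CPM when the 12 libraries are pooled. Floors and intervals cover counting error only. A level of ADRA1D below this floor was not detectable at this depth in any arm.

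**Figure D2:**
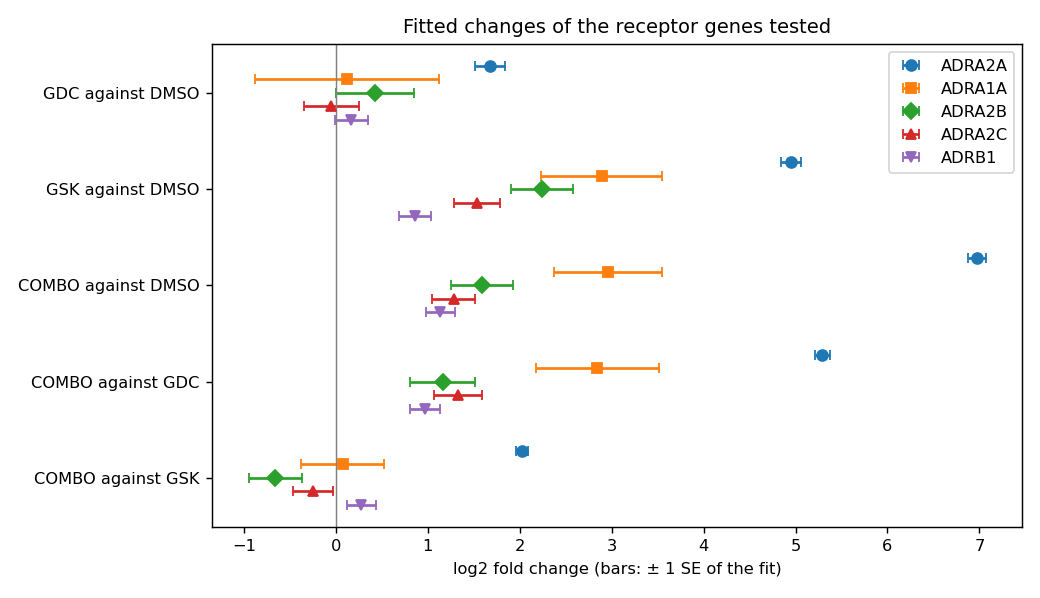
Fitted log2 fold changes of the 5 receptor genes that passed the filter in 5 comparisons, with bars of ± 1 SE. ADRA2A stands at 1.68, 4.95 and 6.97 for GDC, GSK and COMBO against DMSO. The other 4 genes are between -0.05 and 0.42 for GDC against DMSO and between 0.86 and 2.96 for GSK and COMBO against DMSO.

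Levels of different receptors were compared per kilobase of exon, and the receptor pool changed its leading member. In DMSO, ADRB1 was first with 1.03 CPM per kb, followed by ADRA2C at 0.4157 and ADRA2A at 0.3939. In GDC, ADRA2A at 1.283 and ADRB1 at 1.141 CPM per kb were close. In GSK and COMBO, ADRA2A led at 12.63 and 51.15 CPM per kb, followed by ADRB1 at 1.824 and 2.189 and ADRA2C at 1.269 and 1.076.

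As a share of the summed CPM per kb of the 7 genes, ADRB1 made up 52.0% ± 6.0 (DMSO), 37.5% ± 7.52 (GDC), 11.1% ± 1.68 (GSK) and 4.0% ± 0.781 (COMBO). ADRA2A made up 20.1% ± 2.95, 42.0% ± 6.13, 76.6% ± 2.92 and 93.1% ± 0.657. In DMSO the shares of ADRA2A (17.15% to 23.04%) and ADRA2C (16.97% to 24.45%) overlapped, and in GDC those of ADRA2A (34.88% to 45.71%) and ADRB1 (29.57% to 44.51%) overlapped, so the order within these pairs does not hold beyond the spread. The fall in the share of ADRB1 was a fall in share only, since its own level was higher in GSK and COMBO than in DMSO.

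**Figure D3:**
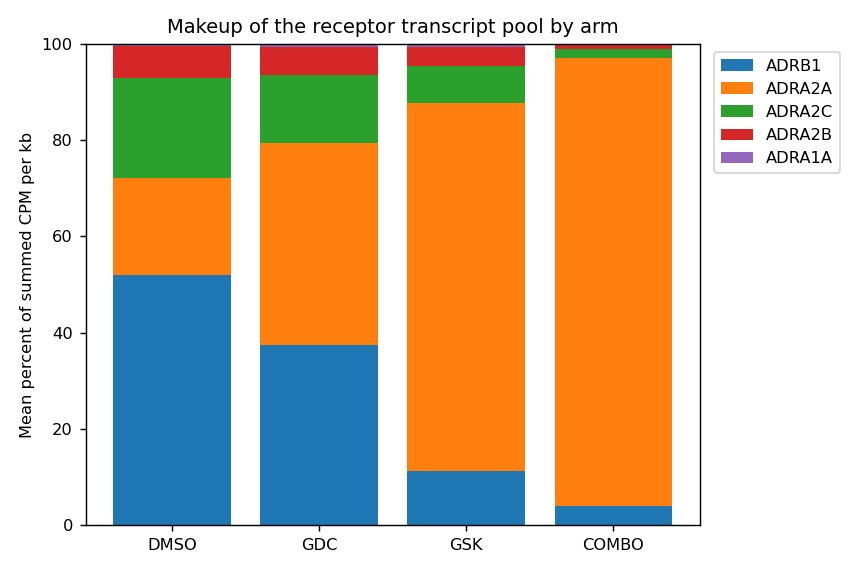
Mean percent of the summed CPM per kb of the receptor genes in each arm (n = 3 libraries), stacked by gene on an axis from 0 to 100. ADRA2A grows from 20.1% in DMSO to 93.1% in COMBO as ADRB1 shrinks from 52.0% to 4.0%.

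The genes that carry the signal of these receptors were then examined in 9 lists of 114 genes, of which 111 had a count and 87 were tested. Against DMSO, GDC had 18 of the 87 higher and 9 lower, beside 20.0% of all tested genes higher and 20.0% lower. GSK had 45 higher and 20 lower, beside 40.0% and 35.7%, and COMBO had 47 higher and 23 lower, beside 43.3% and 39.2%. Of the 87 genes, 8 (PLCB2, ADCY10, GNG2, PDE4C, PDE7B, RGS9, NR4A2 and FOS) reached the filter's 0.705 CPM only in GSK or COMBO libraries, so those called higher were favoured by the filter. Among the other 79, GSK had 38 higher and 20 lower and COMBO 40 higher and 23 lower. Over all tested genes restricted in the same way, 37.5% were higher and 37.6% lower in GSK, and 40.7% were higher and 41.2% lower in COMBO. The restriction is not complete, since the 79 still hold ADCY5, which passed the filter mainly through GSK and COMBO libraries. The median log2 fold change over the 87 genes was 0.097 in GDC, 0.21 in GSK and 0.30 in COMBO, against 0.016, 0.058 and 0.054 over all genes tested. The GDC split depended on scaling and on libraries: with DESeq2 size factors it was 14 higher and 15 lower, and 14 were lower without GSK replicate A, 14 without GSK replicate B and 15 without COMBO replicate A.

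COMBO against GDC gave 44 higher and 24 lower, beside 37.9% and 38.0% of all genes, and 51 higher and 16 lower with library totals. Without the 8 genes that reached the filter only in GSK or COMBO libraries, 37 of 79 were higher and 24 lower. Over all tested genes restricted in the same way, 35.4% were higher and 40.0% lower in COMBO against GDC. COMBO against GSK gave 15 higher and 14 lower, beside 19.0% and 26.9%, and 22 higher and 9 lower with library totals. Its count of lower genes was 9 without DMSO replicate C or without any single GDC replicate, and 8 without GSK replicate B or without COMBO replicate A. The interaction gave 3 higher (SIK1, CREM and PDE3B) and 10 lower, beside 4.86% and 16.5%, and 6 higher and 9 lower with DESeq2 size factors. The 13 interaction calls became 8 without DMSO replicate A, 6 without DMSO replicate C and 8 without GSK replicate B. In the list counts, ADRA2A and the other receptors are not included.

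Of 6 tested Gi/o α subunits, a family that includes the main partners of α2 receptors, 3 rose and 2 fell in COMBO against DMSO. Over all tested genes, 43.3% were higher and 39.2% lower. GNAO1 rose by 1.42 on the log2 scale (7.375 ± 0.799 CPM in DMSO and 19.23 ± 1.80 in COMBO, adjusted p = 4.34e-10), GNAI2 rose by 0.59 (adjusted p = 4.83e-09) and GNAT2, the cone transducin, rose by 0.65 (adjusted p = 0.0296). The GNAT2 libraries of the 2 arms overlapped, and its call was lost with DESeq2 (adjusted p = 0.0689) and without DMSO replicate B (0.065), DMSO replicate C (0.161), COMBO replicate A (0.0897) or COMBO replicate C (0.0989). GNAI1 fell by 0.52 (adjusted p = 4.71e-08) and GNAI3 fell by 0.49 (adjusted p = 1.69e-07). GNAO1 was at 18.37 ± 1.26 CPM in GSK alone, and COMBO did not differ from it past the threshold (0.051, adjusted p = 0.731). The Gi/o subunits thus did not move in 1 direction as a group.

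Of 10 tested genes of the Gq and phospholipase C list, 6 rose and 1 fell in COMBO. The shares over all tested genes were 43.3% higher and 39.2% lower. Of the 6, 1 (PLCB2) reached the filter only in GSK and COMBO libraries. GNAQ, a Gq α subunit, rose by 2.32 (3.269 ± 0.272 CPM in DMSO and 15.79 ± 1.08 in COMBO, adjusted p = 1.46e-13), and it also rose in GSK by 1.97 (adjusted p = 1.57e-11). ITPR2, a calcium release channel of the endoplasmic reticulum, rose by 1.59 (adjusted p = 1.52e-12) and PLCB4 rose by 1.0 (adjusted p = 5.27e-13). GNA11, the near relative of GNAQ, fell by 0.78 (adjusted p = 9.24e-11).

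Of 9 tested genes of the Gs and adenylyl cyclase list, 6 rose and 1 fell in COMBO. The shares over all tested genes, for this list and the next, were 43.3% higher and 39.2% lower. The cyclase ADCY5 had 1, 11 and 13 counts for DMSO and 11, 10 and 9 for GDC. It had 21, 24 and 19 for GSK, and 50, 55 and 42 for COMBO. ADCY5 thus passed the filter mainly through GSK and COMBO libraries, so a higher call of it there was favoured by the filter. The cyclases ADCY7, ADCY1 and ADCY6 rose by 1.11, 0.76 and 0.59 (adjusted p = 2.02e-11, 1.15e-08 and 3.28e-07), and ADCY3 fell by 1.41 (adjusted p = 3.02e-09). Of 12 G β and γ subunits, 6 rose and 5 fell (GNB4, GNB3, GNG5, GNB2 and GNB5), and 1 of the 6 (GNG2) reached the filter only in GSK and COMBO libraries. GNG13, GNG7 and GNG4 rose by 2.61, 1.44 and 0.50 (adjusted p = 2.97e-12, 8.89e-12 and 5.33e-05), whereas GNB4 fell by 1.47 and GNG5 fell by 0.56 (adjusted p = 1.23e-12 and 6.33e-10). GNB2 fell by 0.16 (adjusted p = 0.00331), a direction that turned to 0.048 with library totals.

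Protein kinase A and the cAMP phosphodiesterases were split, with 5 of 15 tested genes higher (PRKAR1A, PDE4D, PRKAR2B, PDE4C and PDE7B) and 7 lower in COMBO. Over all tested genes, 43.3% were higher and 39.2% lower. PDE4C and PDE7B reached the filter only in GSK and COMBO libraries, which leaves 3 of 13 higher and 7 lower. Under the same restriction, 40.7% of all tested genes were higher and 41.2% lower. The catalytic subunit PRKACB fell by 0.96 (adjusted p = 9.30e-12), from 834.1 CPM in DMSO to 428.7 CPM in COMBO on average. PDE4A, which degrades cAMP, fell by 1.30 (adjusted p = 1.95e-08), and the regulatory subunit PRKAR2A fell by 0.90 (adjusted p = 4.45e-12). PRKAR2B, PDE4D and PRKAR1A rose by 0.34, 0.34 and 0.30 (adjusted p = 2.91e-04, 1.0e-04 and 1.36e-04).

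Of 17 tested receptor kinases, arrestins and RGS proteins, which end receptor signals, 9 rose and 4 fell (GRK6, RGS14, ADRBK1 and RGS3) in COMBO. The shares over all tested genes were 43.3% higher and 39.2% lower. Of the 9, 1 (RGS9) reached the filter only in GSK and COMBO libraries. RGS11 rose by 2.34 (adjusted p = 4.54e-09), RGS5 by 1.75 (adjusted p = 4.13e-08) and GRK4 by 1.23 (adjusted p = 4.61e-05). GRK6 fell by 1.28 (adjusted p = 5.17e-13), RGS14 by 1.10 (adjusted p = 5.82e-10) and ADRBK1, the kinase also called GRK2, by 0.86 (adjusted p = 4.40e-12). RGS proteins speed up the GTP hydrolysis of Gα subunits, and GRK2 phosphorylates activated receptors.

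Of the 4 GIRK potassium channel genes, which Gβγ opens, only KCNJ9 passed the filter, and it is named here after its values were seen. KCNJ9 had 5, 12 and 30 counts for DMSO, 22, 22 and 33 for GDC, 5, 5 and 6 for GSK, and 19, 23 and 18 for COMBO. Against DMSO its log2 value was 1.42 in GDC, 0.73 in COMBO and -0.49 in GSK. No DMSO or GSK library reached the filter's 0.705 CPM, so it entered the fit only through GDC and COMBO libraries. These values are therefore a description, with no test. Its higher calls within the list counts of GDC and COMBO were favoured by the filter. Every GDC and COMBO library lay above every DMSO and GSK library in CPM.

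Of 12 genes of catecholamine synthesis, transport and breakdown, 5 were tested. DDC, the aromatic amino acid decarboxylase, rose by 1.26 in COMBO (58.33 ± 2.97 CPM in DMSO and 139.9 ± 4.6 in COMBO, adjusted p = 2.10e-14) and MAOA, which breaks down monoamines, rose by 0.86 (adjusted p = 1.16e-13). SLC22A3, an extraneuronal catecholamine transporter, fell by 0.49 (adjusted p = 4.32e-04). TH and DBH, which like DDC are enzymes of catecholamine synthesis, were under 1 CPM in every library.

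The last list joined CREB family factors and their coactivators, which act upstream, with genes induced by cAMP. Of its 12 tested genes 9 rose and 1 fell in COMBO, beside 43.3% higher and 39.2% lower over all tested genes. Without NR4A2 and FOS, which reached the filter only in GSK and COMBO libraries, 7 of 10 rose and 1 fell. With the same restriction, 40.7% of all tested genes were higher and 41.2% lower. SIK1, a kinase induced by cAMP, rose by 1.17 (adjusted p = 2.88e-12), and the CREB coactivators CRTC1 and CRTC3 rose by 0.89 and 0.76 (adjusted p = 4.11e-09 and 5.33e-09). ATF1, a CREB family factor, fell by 0.79 (adjusted p = 4.91e-11). SIK1 has a near-identical copy in hg38, so its reads may be split. Strand use in the counting was not stated, so reads of ADCY7, ADCY3, GNG13, GNG5, GNB3, PDE4D, GRK6, GNAT2, GNAI3, CREM, PHOX2A and BBIP1 cannot be told apart from those of genes that overlap them.

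**Figure D4:**
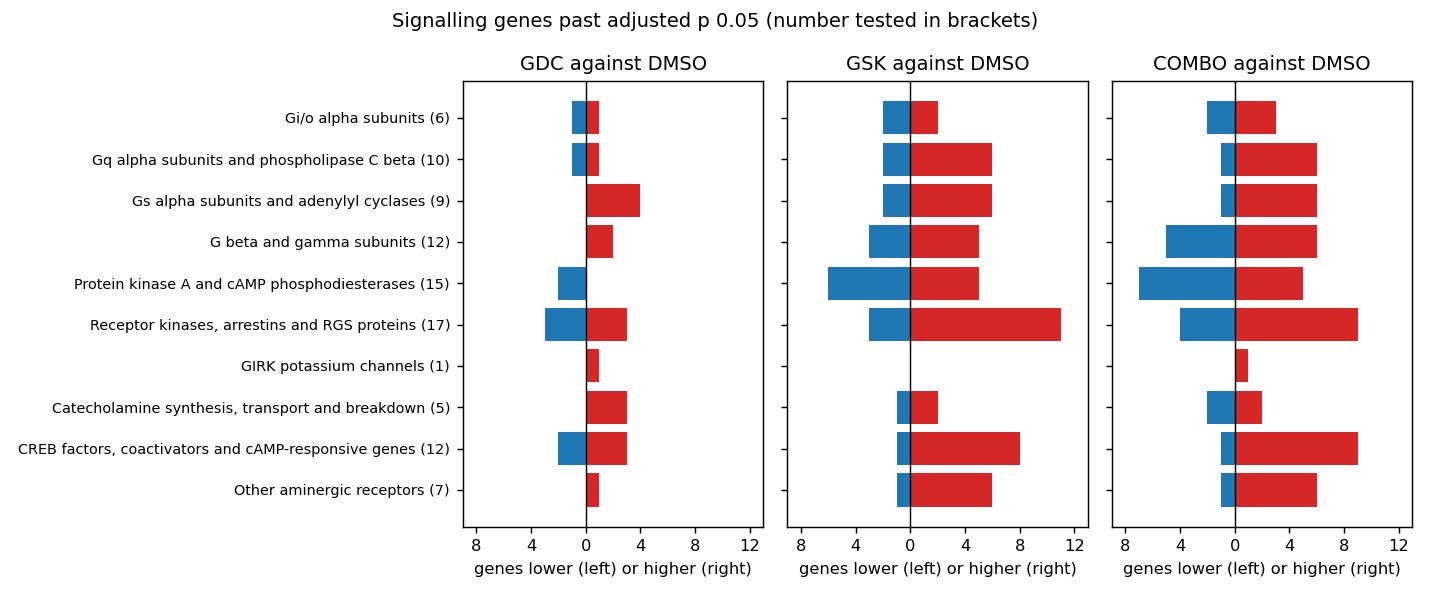
Number of tested genes past an adjusted p of 0.05 in each list, lower to the left and higher to the right, for GDC, GSK and COMBO against DMSO. Brackets give the genes tested. In COMBO, 43.3% of all tested genes were higher and 39.2% lower. In COMBO the list of CREB factors, coactivators and cAMP-responsive genes has 9 higher and 1 lower, 2 of the 9 (NR4A2 and FOS) having reached the filter only in GSK and COMBO libraries, and the protein kinase A and phosphodiesterase list 5 higher and 7 lower.

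Receptors for the other amine transmitters were taken as relatives of the adrenergic receptors. Of 27 listed, 20 had a count and 7 were tested, and 6 of the 7 were higher and 1 was lower (HRH3, named after its values were seen) in both GSK and COMBO against DMSO, beside 40.0% and 43.3% of all tested genes higher. Of the 6, 4 (DRD4, HTR7, HRH1 and HRH2) reached the filter only in GSK and COMBO libraries, so these 4 were favoured by the filter and the count supports nothing about the group. CHRM1, the M1 muscarinic receptor, rose by 1.76 in GSK and 1.93 in COMBO (adjusted p = 5.69e-11 and 2.22e-12), from 3.498 ± 0.0342 CPM in DMSO to 11.87 ± 1.30 and 13.45 ± 0.857 CPM. HTR2C, a serotonin receptor, rose by 0.69 in GSK and 1.49 in COMBO (adjusted p = 1.74e-04 and 5.22e-10), and it was higher in COMBO than in GSK by 0.80 (adjusted p = 2.72e-05).

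The genes whose pattern was most like that of ADRA2A were ranked by Pearson's r of log2 CPM over the 12 libraries, among 12339 genes with a mean log2 CPM of at least 1. Among the first 5 were SAT1 (r = 0.997), POLR1D (0.9954), ACPP (0.9947), which is now named ACP3, and BACE2 (0.9945). SAT1, the spermidine and spermine acetyltransferase, averaged 24.33, 38.9, 84.57 and 130.4 CPM in DMSO, GDC, GSK and COMBO. ACPP, which encodes prostatic acid phosphatase, averaged 28.08, 54.81, 243.1 and 434.5 CPM, and BACE2, an aspartyl protease, 2.352, 4.37, 17.58 and 41.83 CPM. These genes share the order of arms, with smaller ratios than ADRA2A. The 12 libraries form 4 arms and share scaling, so r describes mainly the order and spacing of the arms, and by Spearman's rho these 4 genes scored 0.9441 to 0.965 and ranked from 111 to 430, so the list of the most alike genes depends on the measure. ADRB1 had an r of 0.906 to ADRA2A.

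**Figure D5:**
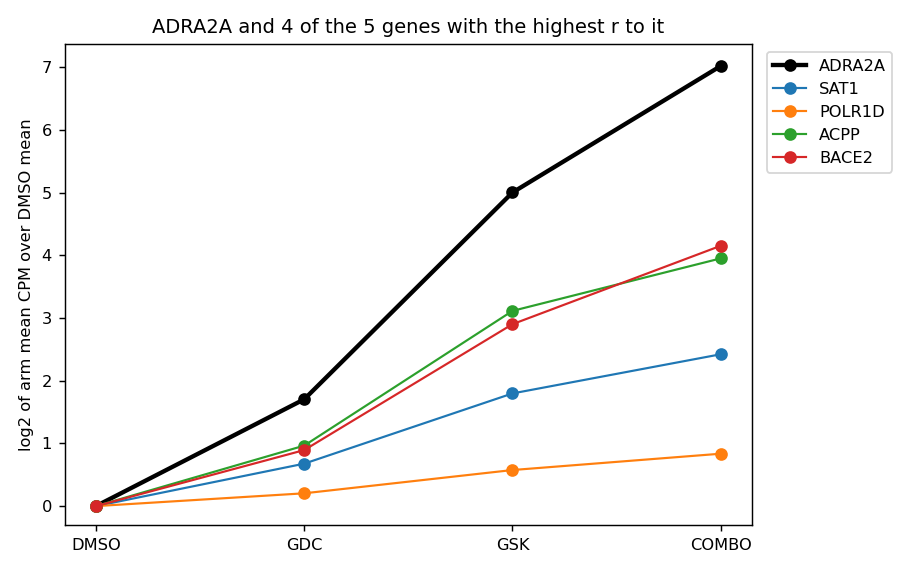
Log2 of the arm mean CPM over the DMSO mean for ADRA2A (black) and 4 of the 5 genes with the highest r to it. All lines rise from DMSO through GDC and GSK to COMBO, and ADRA2A has the widest span, from 1.528 to 198.4 CPM.

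The nearest counted genes on chromosome 10 were also listed. Before ADRA2A lay SHOC2 (59.72 kb away), the pseudogene RPL13AP6 (139.8 kb) and BBIP1 (157.8 kb), and after it GPAM (1069 kb), TECTB (1202 kb) and GUCY2GP (1227 kb). SHOC2, a scaffold of RAS signalling, fell by 0.30 in GDC (adjusted p = 0.00148), rose by 0.43 in GSK (adjusted p = 7.33e-06) and rose by 0.85 in COMBO (adjusted p = 1.52e-10). In COMBO, GPAM rose by 0.24 (adjusted p = 4.96e-04) and RPL13AP6 rose by 0.59 (adjusted p = 0.00128), though reads of this ribosomal protein pseudogene may belong to near-identical copies. BBIP1 was at 0.14 (adjusted p = 0.14), and TECTB and GUCY2GP had 1 count each over all libraries. In COMBO against DMSO the tested neighbours changed by less than 1 on the log2 scale, beside 6.97 for ADRA2A.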

How the data were processed

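PolyA RNA of C4.2B cells (250000 cells per plate) was sequenced in 12 libraries, 3 per arm. The authors aligned the reads with STAR (hg38) and counted them with HTSeq, and the deposited values are raw counts per gene symbol. Versions, annotation and strand use are not given in the sources used here. The deposited table of size-factor-normalized values was not used. The 5 summary lines per file (23.72% to 33.72% of reads) were left out. Columns that mapped to no library numbered 0.

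Tests used edgeR 4.0.16 (R 4.3.3; quasi-likelihood), with TMM scaling, filterByExpr (14189 of 23228 genes) and 1 coefficient per arm over all 12 libraries. The interaction is COMBO minus GDC minus GSK plus DMSO. Calls had a Benjamini-Hochberg adjusted p under 0.05 over all tested genes. Tests were two-sided. Counts in genes were 8785218 to 44437751 per library. Replicates differed by more than sampling noise (chi-square per degree of freedom 1.80 to 6.49), and each library was 1 replicate. The common biological coefficient of variation was 0.0499. The fit was tested on simulated data in which 200 of 14189 genes changed. Far more genes were called in these data, so that test does not cover a setting where most genes change.

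The members and lists were chosen with earlier results of these data known. Named genes were the 7 receptors; in each list, up to 3 genes with the largest positive and 3 with the largest negative COMBO against DMSO change that passed the threshold at a mean log2 CPM of at least 1; the 5 genes most like ADRA2A (prior count 2); 3 neighbours on each side; KLK3 and EZH2. Some genes are not reported here. Lengths and coordinates are from GENCODE 44. Alternatives were DESeq2 1.42.0, DESeq2 size factors, library totals, 2 other filters, a replicate block, fits limited to the compared arms and fits without each library.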

Additional observations from a re-analysis of the deposited data

Results flagged for a closer look

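These results were flagged because the change made by one inhibitor differed with the other inhibitor present, by the interaction term of the edgeR fit (adjusted p under 0.05, all 12 libraries). No receptor gene that was tested is among them, and ADRA2A was not tested. On the log2 scale, the interaction was -0.32 for GNAI2 and -0.29 for GNAI1 among the Gi/o subunits, and -0.49 for GNG7 and -0.66 for GNG4 among the γ subunits. In the catecholamine list it was -0.27 for DDC, -0.29 for MAOA and -1.22 for SLC22A3. SLC22A3 was higher than DMSO by 0.60 in GDC and fell by 0.49 in COMBO. SIK1 was at 0.38. Several of these calls were lost in other settings. Of 18 alternatives the interaction passed in 6 for GNAI1 (adjusted p up to 0.18), 8 for DDC (up to 0.191), 10 for GNAI2 (up to 0.0859), 12 for GNG7 (up to 0.0992) and 13 for EZH2 (up to 0.0915), and it passed in all 18 for GNG4, MAOA, SLC22A3, SIK1, SHOC2, GPAM and KLK3. Leaving out DMSO replicate C, GDC replicate A, GSK replicate B or COMBO replicate A each ended the calls of all 5 (GNAI1, GNAI2, GNG7, DDC and EZH2). Among the neighbours of ADRA2A, SHOC2 was at 0.72 and GPAM at 0.38. The lineage marker KLK3 was at -0.46 and EZH2 at -0.33. Over all tested genes, 4.86% had a higher and 16.5% a lower interaction at this threshold.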

How the results depend on the processing

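Of 434 values of the fitted receptor genes under alternative settings, 432 kept their direction where called and their side of the threshold. The other 2 were ADRA2B in COMBO against GSK, which passed with the replicate block (-0.64, adjusted p = 0.0428) and without GSK replicate A (-0.80, adjusted p = 0.0399). The 434 include ADRA1A and ADRA2B against DMSO and GDC, where the filter favoured a difference, so their steadiness there supports nothing. Against DMSO, ADRA1A had values in only 16 of the 19 alternatives. ADRA2A changed by more than the spread between replicates in 2 of 113 values, both with library totals (7.18 in COMBO against DMSO and 5.47 in COMBO against GDC). Library totals in place of TMM raised the overall median change by 0.154 (GSK), 0.207 (COMBO) and 0.173 (COMBO against GDC) on the log2 scale. With it, GNB2 turned to 0.11 (GSK), 0.048 (COMBO) and 0.11 (COMBO against GDC), COMBO against GSK had 9 lower signalling genes in place of 14, and the interaction had 5 higher in place of 3. With DESeq2 size factors GDC had 15 lower signalling genes in place of 9 and the interaction 6 higher. Without a filter GDC had 15 lower, and the interaction 10 higher and 5 lower in place of 3 and 10. With a mean of at least 1 CPM the interaction had 6 higher, and with only the compared arms GDC had 14 lower. Leaving out 1 library gave 8 to 15 lower genes in GDC, 8 to 14 lower in COMBO against GSK, and in the interaction 6 to 16 calls, 2 to 8 higher and 4 to 12 lower. Of 5989 values of other named genes, 5703 were on the same side, 122 lost and 161 gained the threshold, and 3 reversed. The cause of these shifts was not tested.

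Replicate letters gave little sign of pairing the libraries. The 18 same-letter pairs had correlations of -0.0839 to 0.188 (median -0.0219), and 2 were over 0.1. The 36 different-letter pairs had correlations of -0.146 to 0.104 (median -0.00951), and 1 was over 0.1. Of the 12 libraries, 6 were closest to their own letter. The block with the letter gave 68 signalling calls in COMBO against DMSO in place of 70. Depth limits ADRA1A, ADRA1B, ADRA1D and ADRA2B most, with at most 82 counts per arm.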
